A study of Mus musculus with 15 samples.

Results

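Histone modifier genes were examined for regions of p53 chromatin immunoprecipitation sequencing (ChIP-seq) signal in mouse liver, spleen and thymus. The genes were taken by symbol alone: protein-coding RefSeq genes whose symbol starts with Kdm, Kmt, Kat, Hdac, Sirt, Setd, Prdm or Prmt followed by a digit. This gave 82 genes among 21887 coding genes on the autosomes and sex chromosomes. A gene was counted when a region lay inside it or within 5 kb of it, sharing at least 1 bp with that span. The symbol rule does not follow activity. Of the 82 genes, 8 encode proteins better known for other substrates or for work in mitochondria or the cytoplasm (Setd3, Setd4, Setd6, Sirt3, Sirt4, Sirt5, Hdac6 and Hdac10), and most Prdm proteins are zinc finger transcription factors.

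ChIP-seq sequences the DNA that an antibody recovers together with a protein, here p53, the damage-activated transcription factor encoded by Trp53. The labels describe 15 libraries, all from organs of wild-type (WT) mice, with no strain or age stated. Each organ had 2 libraries from mice without treatment, 2 from mice given 2 Gy of X-ray irradiation 3 h before the organ was taken, and 1 input, meaning chromatin that skipped immunoprecipitation. The authors deposited 1 list of regions per organ, of 3872 (liver), 2604 (spleen) and 2405 (thymus) regions, and the labels attach each list to all 5 libraries of its organ. The names of the lists mention irradiation and IgG, while no library is labelled IgG. Single libraries had no values to analyse here, so neither the effect of radiation nor the spread between mice could be measured, and read depth is unknown. No test was run between organs or between genes and the rest. Intervals are exact Clopper-Pearson 95% intervals and cover counting error over genes only.

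Histone modifiers are commonly grouped as writers and erasers. Writers add methyl groups to lysine (Kmt, Setd and a few Prdm proteins) or arginine (Prmt), or acetyl groups to lysine (Kat). Erasers remove methyl groups (Kdm) or acyl groups (Hdac and Sirt). Several of these enzymes also act on p53, whose C-terminal lysines are acetylated and methylated. The title of the series puts the C-terminus of p53 and liver-specific gene regulation at its centre.

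Liver regions overlapped the promoters of several of these genes, and a few of these promoters are shown for that reason. Of the 82 genes, 66 have an annotated start in the RefSeq promoter table (GRCm38.p6, the assembly that mm10 names). A liver region overlapped the promoter window, from 250 bases before to 50 after the start, of 12 of these 66. This is 18.2%, against 7.99% of the 17492 coding genes in that table. The whole region fell inside the window in 5 cases, those of Kdm1a, Kmt5a, Prmt6, Setd1a and Setd6. Prmt2 is added because its region had the highest liver score rank of any member, and Kdm4c because its window was the only one of the 12 that held the p53 half-site consensus. Each line gives the 250 bases upstream of the annotated start, 5′ to 3′ on the strand of the gene, and capitals mark the bases that lie in the liver region. Bases downstream of the start are not printed. The stretches were chr4:136602724-136602973 on the minus strand for Kdm1a, chr5:124445249-124445498 on the plus strand for Kmt5a, chr3:110251000-110251249 on the minus strand for Prmt6, chr7:127777139-127777388 on the plus strand for Setd1a, chr8:95715663-95715912 on the plus strand for Setd6, chr10:76237866-76238115 on the minus strand for Prmt2 and chr4:74251629-74251878 on the plus strand for Kdm4c.
Kdm1a: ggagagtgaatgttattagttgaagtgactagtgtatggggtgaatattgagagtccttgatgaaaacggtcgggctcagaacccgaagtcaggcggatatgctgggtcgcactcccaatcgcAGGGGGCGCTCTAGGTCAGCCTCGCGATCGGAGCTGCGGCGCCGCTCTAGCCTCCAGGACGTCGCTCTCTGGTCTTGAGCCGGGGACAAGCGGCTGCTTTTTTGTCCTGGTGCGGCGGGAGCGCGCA
Kmt5a: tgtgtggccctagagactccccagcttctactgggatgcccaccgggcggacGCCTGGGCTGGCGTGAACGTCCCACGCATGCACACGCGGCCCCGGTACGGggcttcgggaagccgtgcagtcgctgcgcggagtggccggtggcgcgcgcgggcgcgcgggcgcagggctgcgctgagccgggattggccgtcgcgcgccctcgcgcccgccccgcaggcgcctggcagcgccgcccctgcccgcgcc
Prmt6: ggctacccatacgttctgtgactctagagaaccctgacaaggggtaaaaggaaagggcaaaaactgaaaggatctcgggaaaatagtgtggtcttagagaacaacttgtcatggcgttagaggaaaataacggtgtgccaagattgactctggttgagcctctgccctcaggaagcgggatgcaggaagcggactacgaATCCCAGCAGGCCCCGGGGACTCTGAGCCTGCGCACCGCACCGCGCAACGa
Setd1a: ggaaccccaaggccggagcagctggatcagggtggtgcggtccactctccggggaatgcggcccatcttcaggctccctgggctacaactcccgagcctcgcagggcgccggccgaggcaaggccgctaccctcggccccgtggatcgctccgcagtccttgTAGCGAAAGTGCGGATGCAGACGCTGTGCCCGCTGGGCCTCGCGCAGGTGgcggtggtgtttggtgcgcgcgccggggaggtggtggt
Setd6: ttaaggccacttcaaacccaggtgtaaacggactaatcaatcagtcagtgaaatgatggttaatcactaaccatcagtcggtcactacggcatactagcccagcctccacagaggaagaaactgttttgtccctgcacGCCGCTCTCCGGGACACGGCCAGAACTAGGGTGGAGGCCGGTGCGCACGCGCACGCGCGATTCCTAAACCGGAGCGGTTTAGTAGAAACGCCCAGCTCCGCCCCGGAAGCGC
Prmt2: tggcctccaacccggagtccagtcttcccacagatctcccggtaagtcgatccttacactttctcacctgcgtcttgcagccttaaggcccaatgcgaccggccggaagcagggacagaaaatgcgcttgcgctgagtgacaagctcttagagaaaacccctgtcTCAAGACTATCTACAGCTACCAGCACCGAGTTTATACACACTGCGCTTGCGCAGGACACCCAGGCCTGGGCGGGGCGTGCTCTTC
Kdm4c: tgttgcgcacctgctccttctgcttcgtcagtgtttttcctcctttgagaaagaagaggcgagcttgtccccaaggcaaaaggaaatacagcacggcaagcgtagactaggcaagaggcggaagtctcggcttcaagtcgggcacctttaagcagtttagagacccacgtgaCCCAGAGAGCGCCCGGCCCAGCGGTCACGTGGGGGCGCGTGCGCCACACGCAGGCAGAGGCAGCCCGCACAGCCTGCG

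In the Kdm1a window 127 of the printed bases belonged to the liver region, and the overlapping part of the region held 71.3% G or C and 20 CpG dinucleotides. In Setd6 the region part held 70.7% G or C and 20 CpG, with 112 region bases upstream of the start. The regions of Kmt5a, Prmt6 and Setd1a were 50 bp wide, lay wholly upstream and held 7, 6 and 6 CpG. The region part in the Prmt2 window held 11 CpG at 65.2% G or C, and that of Kdm4c 19 CpG at 81.2%. Each of these 7 region parts thus held 6 or more CpG. In the overlapped promoters that are not printed, the region parts held from 3 (Kdm1b) to 51 CpG (Kdm7a).

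The liver list reached 27 of the 82 histone modifier genes, or 32.9% (22.9 to 44.2), against 15.2% of all coding genes. Longer genes carry more regions, and the members were long, with a median of 41274 bp against 17169 bp for coding genes. The share of all coding genes was therefore also standardised to the gene-length deciles of the members, which gave 18.8% and a ratio of 1.75 (1.22 to 2.34). The spleen list reached 10 members, 12.2% (6.01 to 21.3), against 8.11% of coding genes and a length-standardised 10.6% (ratio 1.15, 0.567 to 2.01). The thymus list reached 8 members, 9.76% (4.31 to 18.3), against 7.17% and a length-standardised 9.55% (ratio 1.02, 0.451 to 1.92). The liver interval lay above its length-standardised share, and the spleen and thymus intervals included theirs. All members with a region had one in the liver list, as did 3331 of the 3431 coding genes with a region in any list. Thus 27 of 82 members had a region in any list, against 15.7% of coding genes. The remaining 55 had none.

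Of the 27 genes, 16 had a region in the liver list alone, which is 19.5% of members (11.6 to 29.7) against 6.26% of coding genes and a length-standardised 7.35%. They were Hdac2, Kdm1b, Kdm2a, Kdm3a, Kdm4c, Kdm7a, Kdm8, Kmt2a, Kmt2c, Kmt5a, Prmt2, Prmt6, Setd1a, Setd6, Sirt5 and Sirt7. A further 7 genes had a region in all 3 lists, 8.54% of members (3.50 to 16.8) against 5.56% of coding genes and a length-standardised 7.49%. Among them were Hdac4, Kat2b, Kdm2b, Kdm3b, Kmt5c and Prdm8, and in each of these it was the same region. Kdm5c, Kmt2b and Sirt3 had a region shared by liver and spleen, and Kdm1a one shared by liver and thymus. The liver list is the longest of the 3, and list length cannot be told apart from read depth here.

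**Figure D1:**
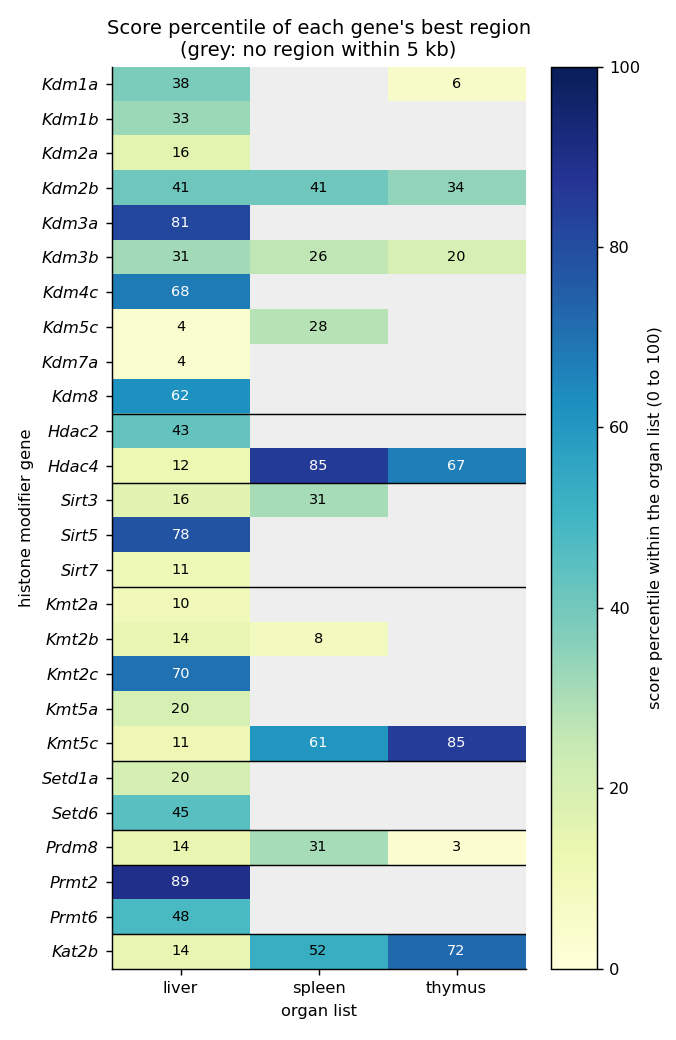
Score percentile (0 to 100) of the best region of 26 histone modifier genes with a region, by organ list; grey cells have no region within 5 kb and black lines separate gene families. Every gene is filled in the liver column, 9 in the spleen column and 7 in the thymus column, and no liver value exceeds 89.4.

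Scores are the authors' own, on a scale that the sources used here do not give, and were read only as ranks. A percentile of 100 marks the highest score of a list. Ranks from lists of different lengths sit side by side below and show no change between organs.

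Lysine demethylases made up the largest group, with 10 of 18 Kdm genes in the liver list (55.6%, 30.8 to 78.5, against a length-standardised 20.6%). The spleen and thymus lists each held 3 (16.7%, 3.58 to 41.4). The length-standardised shares were 12.1% in spleen and 11.01% in thymus, and the interval included both. Kdm3a, a demethylase that removes a repressive methyl mark and acts in sperm formation and metabolism, had the highest liver percentile of the Kdm genes at 81.5. Its region lay 411 bp outside the gene (chr6:71633401-71633550). Kdm4c, another eraser of repressive methylation, ranked at 67.8 in liver with a region over an annotated start inside the gene (chr4:74251801-74252050). Kdm8, a JmjC-domain oxygenase gene, ranked at 62.2 (chr7:125444801-125444950).

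Both genes of the amine oxidase demethylases had liver regions. Kdm1a encodes LSD1, the demethylase of the CoREST repressor complex, and its region (chr4:136602701-136602850) ranked at 38.1 in liver and 5.57 in thymus. Its paralogue Kdm1b, which acts in growing oocytes, had a region of 50 bp that ranked at 32.6 in the liver list alone. Tex46 also lay within 5 kb of the Kdm1a region and Tpmt within 5 kb of the Kdm1b region, so the gene that each region belongs to was not determined.

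The CXXC-domain demethylases Kdm2a and Kdm2b, whose proteins bind unmethylated CpG DNA, differed in which lists held them. Kdm2b had an intragenic region in all 3 lists (chr5:122968201-122968450), with percentiles of 40.8, 40.6 and 34.1 in liver, spleen and thymus. Kdm2a had a region in liver alone, at 15.7, with 9430078G10Rik also within 5 kb. Kdm3b, a relative of Kdm3a, had a region 1131 bp outside the gene in all 3 lists at 31.2, 26.2 and 19.6, with Reep2 also within 5 kb. The X-linked Kdm5c, which removes an active promoter mark, had a region 248 bp outside the gene at 3.63 in liver and 27.9 in spleen. Kdm7a ranked at 3.68 in liver. The 8 Kdm genes without a region were Kdm4a, Kdm4b, Kdm4d, Kdm5a, Kdm5b, Kdm5d, Kdm6a and Kdm6b.

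The liver list held 2 of 11 Hdac genes (18.2%, 2.28 to 51.8), a share close to the length-standardised 18.7%. Hdac2, the catalytic subunit of several corepressor complexes, had a region upstream of an annotated start in liver alone (chr10:36974201-36974350, percentile 42.9). Hdac4, a class IIa deacetylase that shuttles between nucleus and cytoplasm, had 2 regions. The intragenic one (chr1:92127801-92128050) had percentiles of 7.98, 85.2 and 67.1 in liver, spleen and thymus, and the one near an annotated start (chr1:92180901-92180950) was in liver alone at 12.3. The remaining 9 Hdac genes, Hdac1 and Hdac3 among them, had no region.

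The liver list held 3 of 7 Sirt genes (42.9%, 9.90 to 81.6, length-standardised 15.1%). Sirt5, which encodes a mitochondrial deacylase, ranked highest of them at 78.4, but its region lay 3398 bp outside the gene with Nol7 and Ranbp9 also within 5 kb (chr13:43398601-43398650). The mitochondrial deacetylase gene Sirt3 held a region at 16.0 in liver and 30.8 in spleen that lay within 5 kb of Psmd13. Sirt7, which encodes a nucleolar sirtuin, had a region over its start at 10.6, with Mafg within 5 kb. Sirt1, Sirt2, Sirt4 and Sirt6 had none.

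Among the writers, lysine methyltransferases of the Kmt group had the highest liver share, with 5 of 8 in liver (62.5%, 24.5 to 91.5, length-standardised 18.8%). The spleen list held 2 (25.0%, 3.19 to 65.1, length-standardised 10.4%) and the thymus list 1 (12.5%, 0.316 to 52.7, length-standardised 9.46%). Kmt2a, Kmt2b and Kmt2c encode the large methyltransferases of COMPASS-type complexes, which mark promoters and enhancers. Kmt2c had the highest rank of these, 70.1 in liver, from a region 846 bp outside the gene (chr5:25499701-25499850). Kmt2a had the widest region of any member, 350 bp (chr9:44881301-44881650), at a percentile of 9.92. Kmt2b ranked at 14.4 in liver and 8.10 in spleen, with Zbtb32 within 5 kb of its region. Kmt5a, the monomethyltransferase of histone H4, had a region upstream of an internal annotated start at 20.1 in liver alone. Kmt5c, which trimethylates the same histone at heterochromatin, ranked at 11.4, 60.8 and 84.6 in liver, spleen and thymus. Its region lay 4587 bp outside the gene, within 5 kb of Cox6b2 and Fam71e2 as well (chr7:4752101-4752350). Kmt2d, Kmt2e and Kmt5b had none.

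Setd and Prmt genes each had 2 of 8 members in the liver list and 0 in the other lists (25.0%, 3.19 to 65.1; 0 of 8 in spleen or thymus allows up to 36.9%). The length-standardised shares were 18.6% for Setd and 17.7% for Prmt in liver, 9.89% and 9.08% in spleen, and 8.94% and 8.09% in thymus, and every interval included them. Setd1a, a COMPASS-type methyltransferase gene, had a region 39 bp outside the gene at 20.5, with Orai3 within 5 kb. Setd6, which encodes a methyltransferase of the NF-kB subunit RelA, had a region over its start at 45.1, with Ndrg4 and Cnot1 within 5 kb. Prmt2, an arginine methyltransferase and nuclear receptor coactivator, ranked at 89.4, the highest liver percentile of any member, with a region over its start and no other coding gene within 5 kb (chr10:76237801-76237950). Prmt6, which places asymmetric arginine dimethylation, ranked at 48.4. The members without a region were Setd1b, Setd2, Setd3, Setd4, Setd5 and Setd7, and Prmt1, Prmt3, Prmt5, Prmt7, Prmt8 and Prmt9.

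Prdm and Kat genes had fewer liver regions than the length-standardised number, with intervals that included it. Of 14 Prdm genes, 2 had a region (14.3%, 1.78 to 42.8, against 19.5%), and both were in all 3 lists. Prdm8, a regulator of neural and retinal development, ranked at 13.9, 30.8 and 2.87. Of 8 Kat genes, 1 had a region (12.5%, 0.316 to 52.7, against 18.5%). This was Kat2b, which encodes the acetyltransferase PCAF, and the region lay across the distal end of the gene (chr17:53672701-53672950) at 13.8, 52.4 and 72.2, with Sgo1 within 5 kb. Kat2a, Kat5, Kat6a, Kat6b, Kat7, Kat8 and Kat14 had no region, nor did 12 Prdm genes, from Prdm1 (Blimp-1, a regulator of plasma cells) to Prdm16 (a regulator of brown fat).

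Erasers and writers together gave 15 of 36 (41.7%, 25.5 to 59.2, length-standardised 19%) and 12 of 46 (26.1%, 14.3 to 41.1, length-standardised 18.7%) in liver. The writers here include all 14 Prdm genes, although few Prdm proteins are known methyltransferases, and without them the count was 10 of 32 (31.2%, 16.1 to 50.01, length-standardised 18.4%). In spleen erasers gave 5 (13.9%, length-standardised 10.8%) and writers 5 (10.9%, length-standardised 10.4%). In thymus erasers gave 4 (11.1%, length-standardised 9.76%) and writers 4 (8.70%, length-standardised 9.39%). The difference between the groups was not tested, and their intervals overlap.

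**Figure D2:**
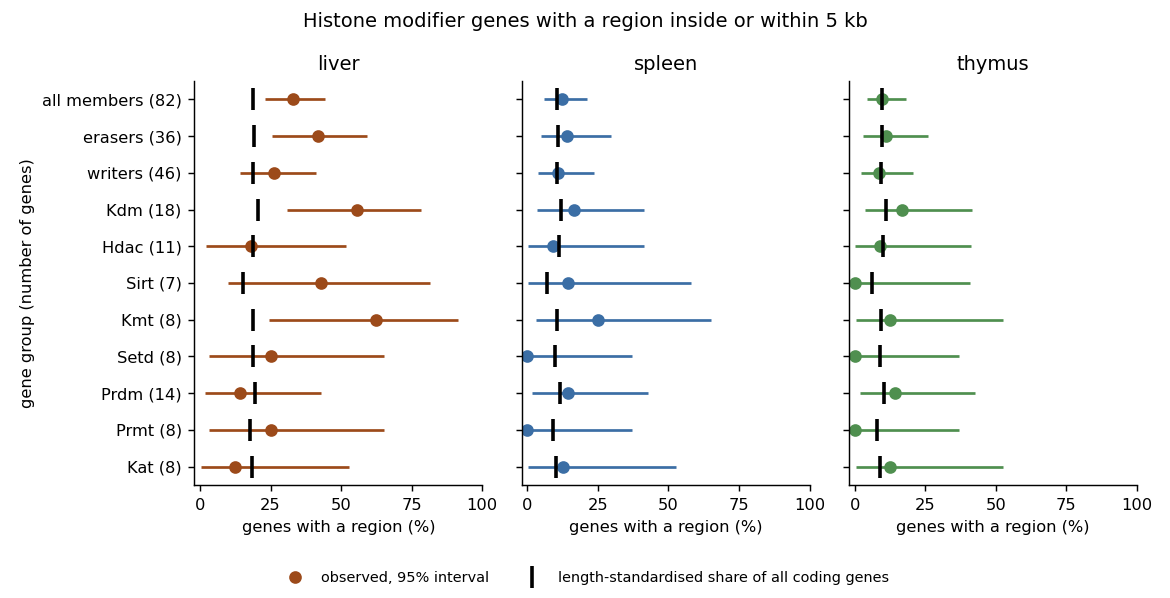
Percentage of genes with a region inside or within 5 kb in the liver, spleen and thymus lists, for all 82 histone modifier genes, for erasers and writers, and for each family (number of genes in brackets); points are observed shares, lines exact 95% intervals and black ticks the length-standardised shares of all coding genes. In liver the points for all members, erasers, Kdm and Kmt have intervals that lie above the tick, and in spleen and thymus every interval includes it.

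Liver-alone regions at the histone modifier genes mostly lay near annotated transcription starts, as they did at coding genes in general. A region within 1 kb of a start (either gene end where no start was annotated) was found for 18 members in liver (22.0%, 13.6 to 32.5), against 9.25% of coding genes and a length-standardised 11.1%. The spleen list gave 2 such members (2.44%, against 2.84% of coding genes) and the thymus list 1 (1.22%, against 2.37%). In spleen they were Kdm5c and Kmt2b, and in thymus Kdm1a. These small counts depend on the position used: at either end of every gene, a setting added with the values known, spleen gave 4 members (4.88%, against 2.91%) and thymus 3 (3.66%, against 2.48%). Of the 27 members with a liver region, 66.7% thus had one at a start, close to the 60.8% of all coding genes with a liver region. In spleen this share was 2 of 10 members against 35.1%, and in thymus 1 of 8 against 33.0%. Of the 24 liver regions at members with an annotated start, 17 had their midpoint within 1 kb of it. These included 15 of the 16 liver-alone regions, against 76.0% of 1355 pairs of a coding gene and a liver-alone region, and 0 of the 5 regions in all 3 lists, against 24.0% of 1022 such pairs. The Prdm8 region, 1 of these 5, lay 13144 bp from the annotated internal start but 498 bp from the outer end of the gene. The exception among the liver-alone regions was that of Sirt5, 33090 bp from the annotated start.

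**Figure D3:**
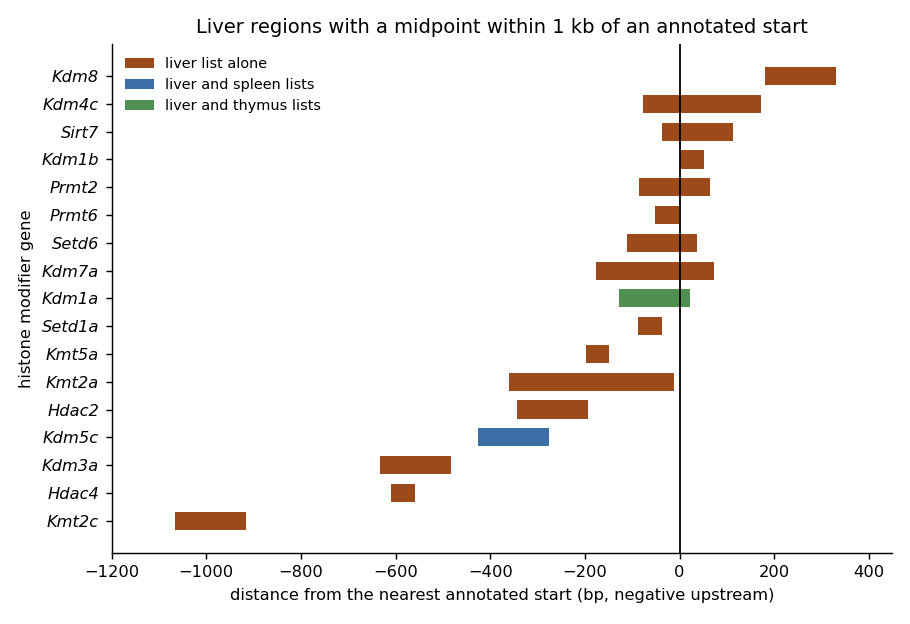
Position of the 17 liver regions with a midpoint within 1 kb of an annotated start, in bp from that start on the strand of the gene (negative upstream); bars span the whole region and colours give the lists that hold it. The midpoints of 13 regions lie upstream and of 4 downstream, and all but those of Kdm1a and Kdm5c are in the liver list alone.

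Among these 17 regions the median distance between midpoint and start was 64.0 bp. Regions of Kdm1a, Kdm4c, Kdm7a, Prmt2, Setd6 and Sirt7 covered the start itself, 6 in all. The farthest upstream were those of Kmt2c (992 bp), Hdac4 (584 bp) and Kdm3a (558 bp), and the farthest downstream that of Kdm8 (255 bp). For Hdac4, Kdm4c and Kmt5a the start concerned is an annotated internal start, not the outer end of the gene. Of the 28 distinct regions at members, 20 lay inside a gene or across its end and 8 outside. The median width was 150 bp for liver-alone regions and 250 bp for regions in all 3 lists. Liver-alone regions made up 60.7% of the members' liver regions, against 41.0% of liver regions within 5 kb of any coding gene. The share of gene and region pairs in which another coding gene also lay within 5 kb was 42.9% for members and 42.0% for all coding genes in liver.

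The members' liver regions ranked low. Over the 27 genes the median percentile of the best liver region was 31.2 (13.9 to 48.4, a binomial interval of the median), against 54.7 for the 3331 coding genes with a liver region. Of the 27, 7 exceeded the 50th percentile (among them Prmt2, Kdm3a, Sirt5, Kmt2c, Kdm4c and Kdm8), 3 the 75th and 0 the 90th. Of the 3331 coding genes, 1830, 909 and 321 exceeded these percentiles. In spleen the median was 35.7 over 10 genes (26.2 to 70.2), against 38.5 for coding genes, and in thymus 43.0 over 8 genes (2.87 to 84.6), against 41.7. The highest spleen value was that of Hdac4 (85.2) and the highest thymus value that of Kmt5c (84.6). When only the upper 50% of liver regions by score were kept, 7 members had a region, 8.54%, against 8.36% of coding genes and a length-standardised 10.1%. With the liver list shortened to its 2405 highest-scoring regions, the length of the thymus list, 12 members had one (14.6%), against 10.2% of coding genes and a length-standardised 12.4%. The liver count of 27 therefore rests largely on regions in the lower part of the list.

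**Figure D4:**
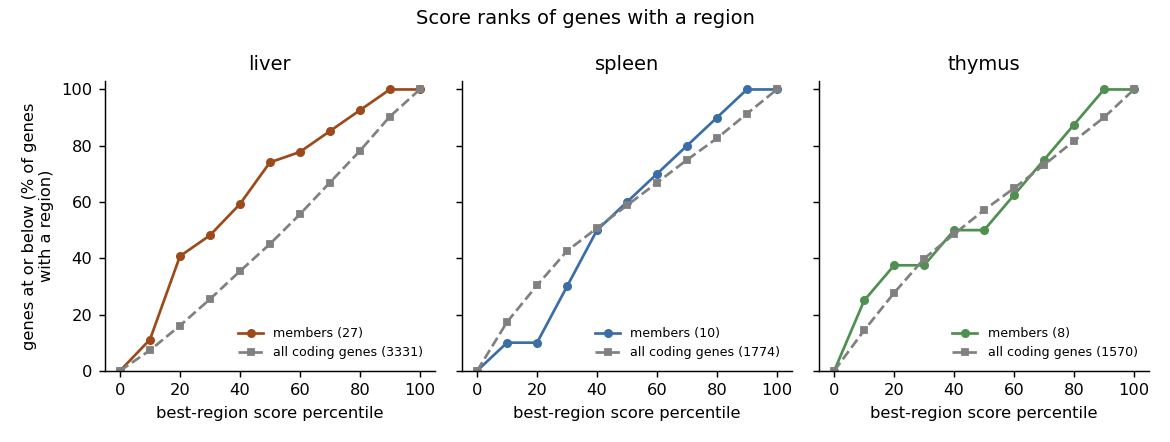
Cumulative percentage of genes with a region whose best-region score percentile is at or below the value on the horizontal axis, for histone modifier genes (solid) and all coding genes (dashed), in each organ list. In liver the solid line runs above the dashed one, with 74.1% of members and 45.1% of coding genes at or below the 50th percentile, while in spleen and thymus the lines cross.

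The liver ranks were also taken by class of region. The 17 liver-alone regions at members had a median percentile of 42.9 (range 3.68 to 89.4), against 48.6 for the 1183 liver-alone regions near any coding gene. The 7 regions in all 3 lists had a median of 13.9, against 54.7 for 1097 such regions near any coding gene. The liver ranks of the regions shared with spleen only were 3.63 (Kdm5c), 14.4 (Kmt2b) and 16.0 (Sirt3), and that of the region shared with thymus only was 38.1 (Kdm1a). Because lists of different lengths give unlike percentiles, the ranks of these 7 were also taken among the 1930 regions that all 3 lists hold, a comparison added once the values were known. The medians for liver, spleen and thymus were then 14.2, 43.4 and 45.7, against 52.4, 47.7 and 48.4 for regions near any coding gene. For Hdac4 these ranks were 7.98, 81.3 and 61.9, for Kat2b 14.1, 43.4 and 67.7, and for Kmt5c 11.5, 53.1 and 81.8, lowest in liver each time. Prdm8 had 14.2, 20.6 and 1.66, lowest in thymus. Kdm2b and Kdm3b ranked highest in liver (39.5 and 30.3, against 31.1 and 16.5 in spleen and 27.5 and 14.2 in thymus). The liver rank was the lowest of the 3 in 3 of the 7 regions (42.9%) and in 36.0% of the 1097.

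The promoters of the members were rich in CpG, and so were promoters with liver regions in general. CpG count here is the number of CpG dinucleotides in the window from 250 bases before to 50 after the start. The 91 promoters of the 66 members in the table had a median of 21.0 CpG and 61.3% G or C, against 13.0 and 56.3% for 21263 promoters of coding genes. The 12 that a liver region overlapped had a median of 28.5 CpG (range 16 to 65, the highest in Kdm7a), against 20 for the 79 others. Promoters overlapped by a liver-alone region at any coding gene had 29.0. The promoter of 18.2% of the members in the table was overlapped by a liver region, against 7.99% of the 17492 coding genes in it. Across coding genes the share with a liver region within 5 kb was 1.94% in the decile with the fewest promoter CpG and 34.1% in the decile with the most. Of the 66 members 17 were in that top decile, and 8 of these had a liver region. Standardised to CpG deciles in place of length, a setting added with the values known, the expected share was 22.5%, against 34.8% of these members (ratio 1.55). The part of promoter CpG content in the liver count beyond this was not tested, and no interval was taken for this ratio. With the same setting the ratio was 0.946 in spleen and 0.924 in thymus.

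**Figure D5:**
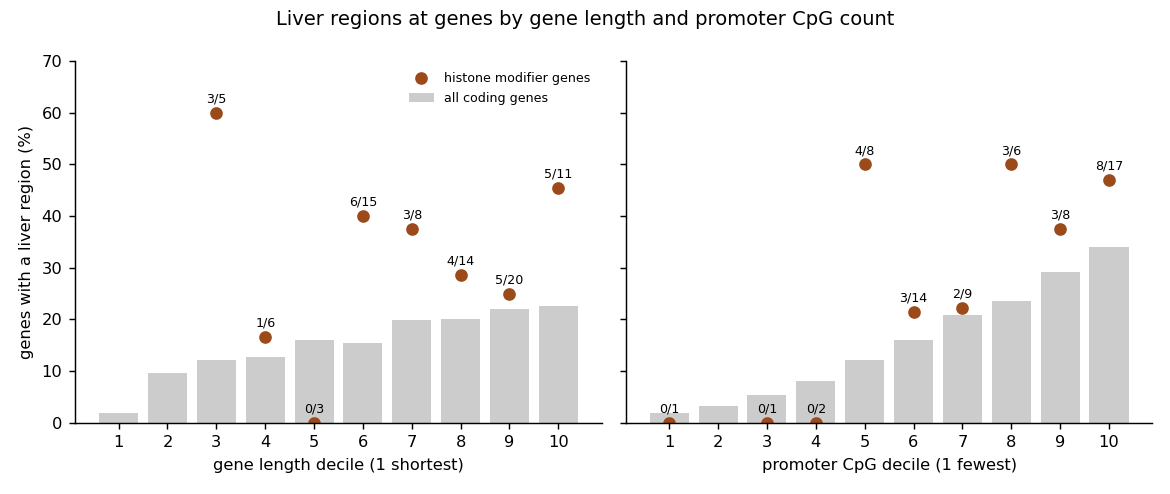
Percentage of genes with a liver region inside or within 5 kb by decile of gene length (left, all coding genes and 82 members) and of promoter CpG count (right, genes in the promoter table and 66 members); bars are all coding genes, points histone modifier genes with their counts. Bars run from 1.87% in the shortest to 22.6% in the longest genes and from 1.94% to 34.1% with CpG. The points sit above the bars in every decile that holds 6 or more members. Of the deciles with fewer, the point of length decile 3 (3 of 5) lies above its bar. Those of length decile 5 (0 of 3) and CpG deciles 1, 3 and 4 (0 of 1, 0 of 1 and 0 of 2) lie below.

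Motifs were looked for in the same 300-base windows, on both strands. The p53 half-site consensus, the palindromic decamer of which p53 binds a pair, was in 1 of the 12 overlapped member promoters (8.33%) and in 7.37% of coding promoters. The match was in Kdm4c, between 190 and 181 bases before the start, outside the part that the liver region covers. Of all promoters overlapped by a liver-alone region 5.54% held the consensus, against 14.5% of those overlapped by a region in all 3 lists. A looser pattern, a pair of CNNG cores with 6 bases between them (a half-site holds a single such core), was in 12 of 12, in 75.1% of coding promoters, in 93.8% of those with a liver-alone region and in 84.8% of the members' 79 other promoters. The GC box GGGCGG was in 9 of 12 (75%), against 46.2% of coding promoters and 78.6% of those with a liver-alone region. The ETS core CGGAAG was in 5 of 12 (41.7%, against 21.1% and 42.6%), the CCAAT box in 3 (25.0%, against 38.2% and 28.7%) and GCGCATG, part of the NRF1 site, in 1 (8.33%, against 4.8% and 27.2%). That match was in Sirt7. The last 4 motifs were chosen after the data were seen, and a match describes letters in a window and not a binding site.

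Some members are known to modify p53 itself. Of 9 such enzymes among the members, a set named after the values were seen, 3 had a liver region, beside 27 of all 82 members and 15.2% of coding genes. They were Kdm1a (38.1), which demethylates p53, Kmt5a (20.1), which methylates a C-terminal lysine of it, and Kat2b (13.8), which acetylates it. Kat5, Kat8, Setd7, Sirt1, Hdac1 and Prmt5 had none in any list. Of 5 p53-modifying enzymes with other symbols, Ehmt1 (92.3, 41.3 and 24.7 in the order liver, spleen, thymus), Ehmt2 (88.9 in liver alone) and Crebbp (25.1, 42.6 and 52.6) had a region, and Ep300 and Smyd2 did not.

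Other chromatin genes were counted beside the 82. From 6 lists of 139 further genes, 48 had a liver region (34.5%, 26.7 to 43.1, length-standardised 18.9%), 25 a spleen region (18%, 12 to 25.4, against 10.9%) and 27 a thymus region (19.4%, 13.2 to 27.0, against 9.83%). A region in the liver list alone was found for 19 of them (13.7%, 8.43 to 20.5), against 6.26% of coding genes and a length-standardised 7.17%. Regions in all 3 lists were found for another 19 (13.7%, 8.43 to 20.5), against 5.56% of coding genes and a length-standardised 7.85%. Among the 82 histone modifier genes these shares were 19.5% and 8.54%. The differences from the 82 genes were not tested, and each pair of intervals overlaps. By class, the liver counts were 8 of 23 other methyltransferases, 3 of 10 acetyltransferases and 5 of 11 demethylases and JmjC proteins. They were 12 of 44 complex subunits, 12 of 30 readers of histone marks and 9 of 22 remodelers and chaperones. The length-standardised liver shares of the classes ran from 17.6% (complex subunits) to 21.2% (acetyltransferases), against 15.2% of all coding genes. The interval lay above the length-standardised share for readers (22.7 to 59.4, against 18.4%). It did so narrowly for remodelers and chaperones (20.7 to 63.6, against 20.3%). In every other class the interval included that share. The p160 coactivator gene Ncoa1 ranked highest over the lists, at 94.6, 90.6 and 89.5 in liver, spleen and thymus (chr12:4357101-4357550). Eed, the Polycomb subunit that binds methylated histone, had a region 3104 bp outside the gene at 61.1, 86.7 and 62.4. Mta3, a NuRD subunit gene, ranked at 21.8, 80.6 and 67.9, and Smarca4, the ATPase gene of SWI/SNF complexes, at 89.6, 22.7 and 54.1. Meaf6 (56.3, 51.4 and 47.3), Smyd3 (29.1, 31.1 and 59.3), Yeats4 (97.0, 15.2 and 1.62) and Phf20 (8.90, 52.5 and 50.9) were the others of the 10 with the highest summed percentiles beside Ehmt1 and Crebbp.

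The 5 kb limit set which genes counted. Just inside it were Kmt5c at 4587 bp and Sirt5 at 3398 bp. Just outside were Prdm2, at 6232 bp from a region at percentiles of 4.70, 82.4 and 86.8 in liver, spleen and thymus, and Kmt5b, at 7212 bp from one at 96.3, 79.5 and 92.8 (chr19:3759701-3760150). Setd4 lay 8207 bp from a region at 14.5, 83.2 and 76.2, and Prdm4 9949 bp from one at 5.76, 34.8 and 34.6. In thymus Sirt7 and Sirt3 also lay just outside, at 6387 bp from a region at 41.2 and 8213 bp from one at 21.9. With a limit of 10 kb the liver, spleen and thymus counts were 31, 14 and 14 of 82, against 17.8%, 9.77% and 8.73% of coding genes and length-standardised shares of 21.3%, 12.4% and 11.1%. Regions in all 3 lists were then found at 12 members (14.6%), against 6.87% of coding genes and a length-standardised 8.89%.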

How the data were processed

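The labels describe 15 p53 ChIP-seq libraries, 5 per organ. The authors deposited 3 headerless region lists with 6 columns, and the score in each list is the authors' own value for a region, used here as a rank. Genome build mm10 is named per the submitters' processing notes, with the aligner, the region caller, its settings and any pooling of libraries not given in the sources used here. Gene positions, starts and promoter sequences came from RefSeq tables of GRCm38.p6, and no genome sequence was used here. Standardised shares are means of the shares of all coding genes in 10 bins of gene length, weighted by the members in each bin. Percentiles average ties, and the best region of a gene is its highest-scoring one. All members with a region are named except 1, which is counted but not reported here, and other chromatin genes are named if in all 3 lists, the 10 with the highest summed percentiles, beside Ehmt2, Ep300 and Smyd2, named as p53-modifying enzymes with the values known. The members, the lists and the design of these comparisons were chosen with earlier results of these data known. Placement code was tested on simulated data. Python 3.11.15, numpy 2.4.6, pandas 2.3.3, scipy 1.17.1 and matplotlib 3.10.9 were used. Alternatives covered the distance limit, the score threshold, list length, overlap, assignment, members, length bins and the choice of region.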

Additional observations from a re-analysis of the deposited data

How the results depend on the processing

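Of 67 alternative values, 51 stayed within 1.5 times the main count or within the interval of the main value, and 16 did not. The score threshold moved the most counts, but dropping regions also lowers the share of coding genes with one (in liver from 15.2% to 8.36%). At the upper 50% by score, the ratio to the length-standardised share went from 1.75 to 0.846 in liver. For liver alone it went from 2.65 to 1.05, and for all 3 lists from 1.14 to 0.561. In spleen it went from 1.15 to 1.08 and in thymus from 1.02 to 1.14. With lower-scoring regions dropped to leave the upper 50%, the liver, spleen and thymus lists reached 7, 4 and 4 members. These were 8.54%, 4.88% and 4.88%, against length-standardised shares of 10.1%, 4.51% and 4.28%. Regions in all 3 lists were found at 1 member (1.22%, against 2.17%) and in liver alone at 6 (7.32%, against 6.99%). Members with a region at a gene start numbered 5 (6.10%), 0 and 0, against 4.94%, 0.471% and 0.370% of coding genes. With lists of equal length, 12 members had a liver region (14.6%, against a length-standardised 12.4%). Regions in all 3 lists were found at 2 (2.44%, against 5%) and in liver alone at 9 (11%, against 5.23%). With a limit of 10 kb, 14 members had a thymus region (17.1%, against a length-standardised 11.1%) and 12 had regions in all 3 lists (14.6%, against 8.89%). At either end of every gene, a setting chosen after the data were seen, 4 members had a region in spleen and 3 in thymus. Both lay above the coding shares, where the main counts lay below them. Within 2 kb of a start 2 members had a region in thymus (2.44%, against 2.76% of coding genes). The ratio of members to the length-standardised share ranged from 0.846 to 1.77 in liver, 1.02 to 1.38 in spleen and 0.836 to 1.53 in thymus over the count alternatives. The lowest liver ratio, below 1, came from the upper 50% by score, and the ratio for all 3 lists fell from 1.14 to 0.488 with lists of equal length. Without matching on length the liver ratio was 2.16. Counts over small families are imprecise, and read depth is unknown. No paired analysis was possible because each organ has a single list and no values per library.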
